A study of Mus musculus with 15 samples.

Results

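The genes described here carry symbols made of Zfp and a number, the mouse name for zinc finger proteins, and were followed in the substantia nigra after injection of a virus on 1 side of the brain. Members were chosen by level alone: their value had to average 3 or more across the 6 libraries of miR-181 mice, and likewise across the 9 libraries of GFP mice. Of 376 genes with such a symbol, among 36265 genes in all, 293 were members; 83 were below 3 in 1 table or both. The deposited values were read as TPM (transcript abundance scaled to a fixed total) over 1 size factor per library, a scale that accounts for transcript length, and the depth of the libraries is unknown. Since the choice used the level, levels are given as a description, and changes between the sides of the brain were not part of the rule.

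All mice were C57Bl/6J, and tissue was taken 3 weeks after injection. In 3 mice 1 side received AAV-hSYN1-miR-181, an adeno-associated virus that makes miR-181 from the promoter of human synapsin, active in neurons, at 1.65e10 vector genomes; both sides of each mouse were sequenced. The GFP set of 5 mice had AAV-hSYN1-GFP, which makes green fluorescent protein from the same promoter, at 1e10 vector genomes. It gave 4 injected and 5 uninjected libraries, mouse 5 having an uninjected library only. The sets differ at once in vector, dose, sequencer, read length (75- and 50-base pairs) and library set, which cannot be told apart, so each side is compared with the other side within a set. The labels do not say which member of the miR-181 family was made, and no measurement of mature miR-181 was used. The RNA came from dissected tissue, where fewer cells of a type and less RNA per cell cannot be told apart.

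Most zinc fingers of the C2H2 kind are short folds in which 2 cysteines and 2 histidines hold a zinc ion, and proteins that carry a row of them bind DNA. Many also carry a KRAB domain, which recruits the corepressor Trim28 and enzymes that silence chromatin, and KRAB zinc finger proteins are known for silencing retroelements and for keeping imprinted genes marked. MicroRNAs pair through their seed with messenger RNAs and lower their level or translation, most often at sites in the 3' untranslated region (3' UTR). Repeated seed matches within the coding sequence of zinc finger genes are a known feature of miR-181 targets.

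The seed, bases 2 to 8, is the same in the 4 mature forms of miR-181, which are printed because the coding matches below are defined by it. The sequences are from RefSeq (GRCm38.p6), 5′ to 3′, with the seed in capitals.
miR-181a-5p: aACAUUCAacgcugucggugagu
miR-181b-5p: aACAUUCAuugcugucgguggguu
miR-181c-5p: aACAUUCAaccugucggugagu
miR-181d-5p: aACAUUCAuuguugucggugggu

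The reverse complement of this seed, TGAATGT, was counted in the longest annotated coding sequence and 3' UTR of each gene in GENCODE M21 (GRCm38), on the transcribed strand. Coding sequences were found for 290 members, and the other 3 are transcribed pseudogenes. The coding sequences of members held 585 matches, in 150 members (51.7%), against 12.7% of the 14038 genes with a coding sequence and a mean of at least 1 in both tables. That is 1.04 matches per 1000 coding bases in members and 0.118 in those genes. Of the 114 such genes with 5 or more matches, 50 were members and 41 were other genes with 5 or more C2H2 fingers. In the 3' UTR the shares were closer, 28.3% of members and 18.5% of the genes.

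The matches lay where the fingers are encoded. Of the 585, 567 (96.9%) were read in the frame in which GAA and TGT are whole codons, for glutamate and cysteine. The cysteine was the first zinc-binding cysteine of a finger at 331 of them and the second at 183. The 8 windows below, 30 bases of coding sequence each with the match in capitals, show the match repeated in members whose values are given next; Zfp37 has 12 matches, Zfp967 12, Zfp971 13, Zfp970 14 and Zfp930 14. Zfp37 is on the minus strand of chromosome 4, at chr4:62192166-62192195, chr4:62192082-62192111 and chr4:62192073-62192102. The others are on the plus strand, Zfp967 at chr2:176530810-176530839, Zfp971 at chr2:178032991-178033020, Zfp970 at chr2:177475016-177475045 and Zfp930 at chr8:69228033-69228062 and chr8:69228042-69228071 (GRCm38).
Zfp37, first: gggaaaccttaTGAATGTaaccactgtggg
Zfp37, the next: gagaaaccataTGAATGTaatgaatgtggg
Zfp37, the third: tatgaatgtaaTGAATGTgggatagctttc
Zfp967: gagaaaccataTGAATGTaaccactgtgtt
Zfp971: gagaaaccctaTGAATGTaaccactgtggt
Zfp970: gagaaaccctaTGAATGTaaccactgtggt
Zfp930, first: gagaaagcctaTGAATGTaatgaatgtggt
Zfp930, the next: tatgaatgtaaTGAATGTggtaaaggcttt

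The second window of Zfp37 and the first of Zfp930 overlap the window after them, so the same bases hold a match at both cysteines of 1 finger. The windows of Zfp971 and Zfp970 have the same 30 bases, and such copies bear on how reads are assigned. For each coding sequence the share of 31-base words found in no other annotated gene was computed. It was at least 90% in 217 members and under 50% in 29, of which 9 lie on chromosome 2. Zfp37 and Zfp57 had 100% unique words, Zfp971 32.5%, Zfp970 23.1% and Zfp967 0%. Levels of members with few unique words, Zfp967, Zfp966, Zfp965, Zfp973 and Zfp82 above all (0% each), rest on how the authors' tool split shared reads and are uncertain.

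Members were a low and broad class of transcripts. Their mean over the libraries ran from 3.22 to 171 in miR-181 mice (median 11.9) and from 3.20 to 144 in GFP mice (median 11.2), and 14 and 11 members reached 50. Together they made up between 0.474% and 0.4998% of the summed values of a miR-181 library, and between 0.439% and 0.474% of a GFP library. The highest were Zfp706 (171 in miR-181 mice and 144 in GFP mice), Zfp445 (129 and 93.8), which acts with Zfp57 at imprinted genes, and Zfp207 (93.6 and 80.7), which helps chromosomes attach to the spindle. Zfp106, an RNA-binding protein needed by motor neurons, stood at 96.9 and 65.8, Zfp740 at 79.2 and 73.8, and Zfp664 at 74.1 and 67.9. The 2 tables were normalized separately, so the levels are not compared between them. Zfp706 has 1.01% unique words. Just inside the limit of 3 were Zfp11 (3.25 and 3.20) and Zfp39 (3.68 and 3.22); just outside were Zfp92 (3.00 and 3.66, 2.997 before rounding) and Zfp781 (2.99 and 3.13).

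Fingers numbered 3038 over the members, with a median of 10 and at most 36; 7 members had none by the pattern used, among them Zfp36, whose fingers are of another kind. A KRAB pattern was found in 121 of the 290. Members were most frequent on chromosome 7 (77), chromosome 17 (34) and chromosome 8 (23).

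On the side given miR-181, 5 members fell and 1 rose at a limma adjusted p under 0.05. Those that fell were Zfp37, Zfp967, Zfp971, Zfp125 and Zfp57; Zfp94 rose. Over all 15453 genes tested 1.49% were called lower and 4.39% higher, against 1.71% and 0.341% of the members, so the share of members called lower was near the background. At an unadjusted p under 0.05, 35 members were lower (11.9%, against 10.7% of all genes tested) and 9 higher (3.07%, against 12.8%). In 56 members every injected library was below every uninjected one (19.1%, against 14.5% of all genes tested), and in 20 every injected library was above (6.83%, against 16.0%).

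Zfp37 stood at 18.6, 19.1 and 20.04 on the uninjected sides of mice 1, 2 and 3 and at 13.3, 11.9 and 12.1 on the injected sides. The sides did not overlap, and the mean fell from 19.2 ± 0.725 to 12.4 ± 0.787 (SD, n = 3 each), which is -0.61 ± 0.07 log2 units (SE; limma adjusted p = 0.0084). In GFP mice it was 14.2, 13.1, 14.1, 14.6 and 15.4 on the uninjected sides of mice 1 to 5 and 13.2, 12.4, 14.7 and 13.8 on the injected sides of mice 1 to 4, and the sides overlapped. Zfp37 (ENSMUSG00000028389) lies on chromosome 4 from 62189540 to 62231047.

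Zfp967, a KRAB gene of the chromosome 2 group, was at 43.9, 47.4 and 45.4 on the uninjected sides and at 32.8, 27.6 and 29.1 on the injected sides. No injected library reached an uninjected one; the log2 change was -0.61 ± 0.07 (SE, n = 3 each; limma adjusted p = 0.00898). In GFP mice it was 59.8, 57.1, 53.4, 59.6 and 64.7 uninjected and 52.1, 53.9, 52.6 and 56.1 injected. There the injected libraries were low, and only the uninjected library of mouse 3 lay within their range. Zfp967 (ENSMUSG00000095199) spans chromosome 2 from 176521056 to 176532479.

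Zfp971 was at 24.2, 26.3 and 27.5 uninjected and at 19.3, 12.9 and 14.7 injected, a log2 change of -0.74 ± 0.14 (SE, n = 3 each; limma adjusted p = 0.0335). Mouse 1 had the highest injected value. In GFP mice it was 24.9, 27.03, 24.2, 24.3 and 25.1 uninjected and 23.5, 20.97, 25.4 and 20.4 injected, with overlap. Zfp970, its neighbour with 14 matches, was at 27.6, 28.7 and 25.7 uninjected and at 22.4, 14.6 and 19.9 injected in miR-181 mice. Its sides did not overlap, but its log2 change of -0.54 ± 0.15 did not pass (SE, n = 3 each; limma adjusted p = 0.0890). In GFP mice Zfp970 was at 35.1, 34.8, 42.5, 41.5 and 43.3 uninjected and at 41.9, 39.4, 42.1 and 36.9 injected, with overlap.

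Zfp57, a KRAB protein that keeps DNA methylation at imprinting control regions, was at 12.2, 13.9 and 14.9 uninjected and at 10.3, 7.92 and 9.40 injected. The log2 change was -0.55 ± 0.12 (SE, n = 3 each; limma adjusted p = 0.0491), just past the threshold. It has 1 coding match, which is not in the frame of whole GAA and TGT codons, and 3 fingers. In GFP mice it was at 14.4, 15.3, 16.3, 18.1 and 14.8 uninjected and at 16.1, 13.7, 16.1 and 15.3 injected, with overlap.

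Zfp125, a transcribed pseudogene on chromosome 12 with no coding sequence to search, was at 12.9, 11.2 and 12.1 uninjected and at 7.99, 6.58 and 8.41 injected. It fell by 0.62 ± 0.11 on the log2 scale (SE, n = 3 each; limma adjusted p = 0.0285). In GFP mice the uninjected values were 10.5, 10.7, 10.2, 11.9 and 10.9 and the injected ones 9.24, 10.96, 10.9 and 10.99, and the sides overlapped.

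Zfp94, a member without coding matches, was at 11.7, 11.1 and 11.3 uninjected and at 14.6, 18.1 and 16.03 injected, a log2 change of 0.50 ± 0.09 (SE, n = 3 each; limma adjusted p = 0.0303). In GFP mice it was at 15.8, 14.5, 9.79, 13.1 and 13.8 uninjected and at 11.97, 12.04, 15.02 and 15.97 injected, with overlap. Zfp36, or tristetraprolin, binds AU-rich elements of inflammatory messenger RNAs and speeds their decay. It was at 4.42, 3.75 and 4.67 uninjected and at 5.85, 9.20 and 7.76 injected, and its log2 change of 0.74 ± 0.18 did not pass (SE, n = 3 each; limma adjusted p = 0.0577). In GFP mice Zfp36 was at 5.43, 4.79, 3.81, 3.51 and 3.35 uninjected and at 4.90, 6.18, 3.91 and 5.70 injected, with overlap (log2 change 0.28; limma adjusted p = 0.668).

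**Figure D1:**
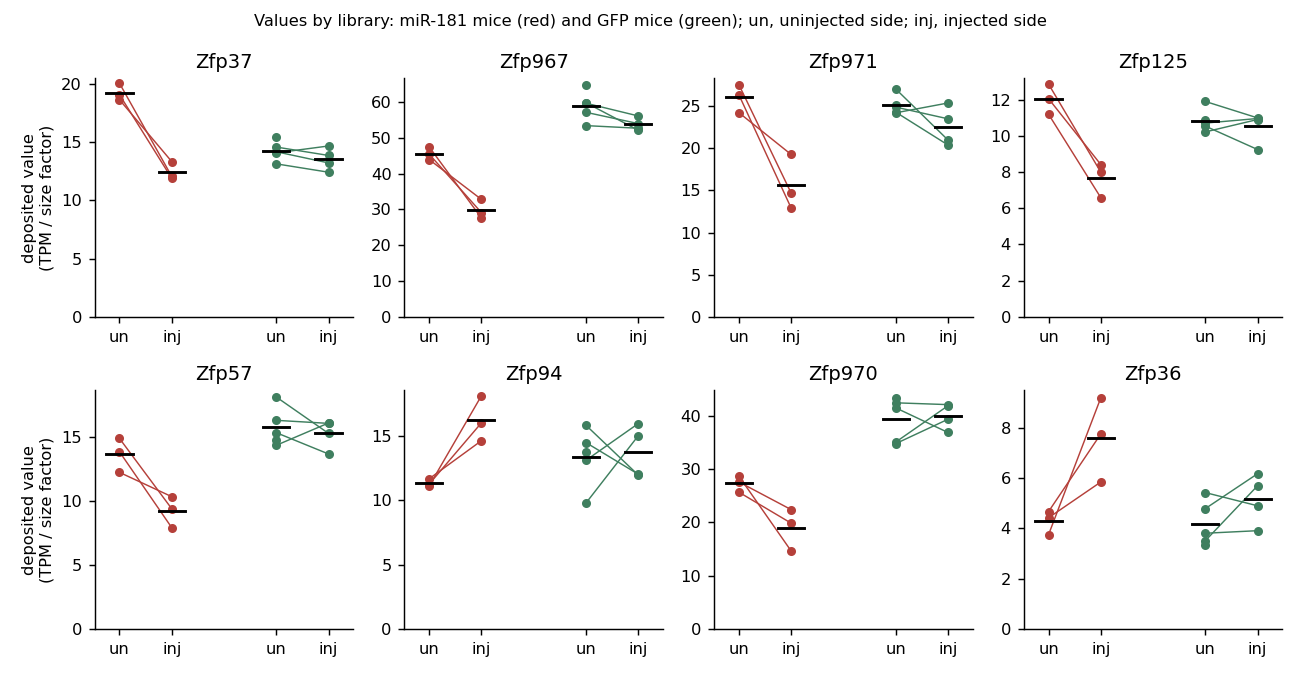
Deposited values (TPM divided by a size factor, linear axes from 0) of 8 members in each library; lines join the sides of a mouse, black bars are group means, and mouse 5 of the GFP set has an uninjected point only. In miR-181 mice the sides did not overlap for any of the 8, while in GFP mice they overlapped for each. The 8 include all members called on the miR-181 side, so this is no contrast between vectors. Over all genes tested, the injected libraries were all below the uninjected ones in 14.5% in miR-181 mice and 1.00% in GFP mice. They were all above in 16.0% and 3.29%.

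These calls rested on few libraries. When uninjected mouse 2 or uninjected mouse 3 was left out, limma called 0 members lower and 0 higher, and Zfp37, the call of smallest p, stood at an adjusted p of 0.0598 and 0.0508. Without uninjected mouse 1 the counts were 2 lower and 0 higher, without injected mouse 2 they were 3 and 0, and without injected mouse 3 they were 2 and 0. Without the injected library of mouse 1 they were 15 lower and 2 higher. With mouse as a block 3 members were lower and 0 higher: Zfp971, Zfp57 and Zfp94 did not pass (adjusted p = 0.0584, 0.0791 and 0.056). With each library centred on its median 9 members were lower and 1 higher. Over all 15453 genes tested that setting called 468 lower and 634 higher, against 230 and 678 in the main fit. The share over all genes is not given for the fits with a library left out, so their counts describe no trait of the members.

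By the authors' deposited table, the first of its 2 q-values was under 0.05 for 14 members lower on the miR-181 side and 3 higher, against 4.12% and 6.55% of all genes with a value. The other q-value in the authors' deposited table was under 0.05 for 4 members lower and 0 higher, against 1.41% and 4.04% of genes.

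The next largest rises among members did not pass: Zfp710 at a log2 change of 0.38, Zfp691 at 0.29 and Zfp433 at 0.28 (limma adjusted p = 0.116, 0.138 and 0.31). Of other members with many coding matches, Zfp966 had a log2 change of -0.72, Zfp973 of -0.49 and Zfp930 of -0.45 (limma adjusted p = 0.131, 0.0576 and 0.137).

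The log2 change on the miR-181 side was lower in classes with more coding matches. The 140 members with 0 matches had a median log2 change of 0.038 and 54 of them were below 0. The medians were -0.021 for the 51 members with 1 match and -0.055 for the 49 with 2 to 4. For the 50 members with 5 or more it was -0.20, with 45 of them below 0, 3 called lower (Zfp37, Zfp967 and Zfp971) and 0 called higher. All 15 members with 9 or more matches had a log2 change below 0, from -0.74 for Zfp971 to -0.078 for Zfp950. In mice 1, 2 and 3 the median of members with 5 or more matches was -0.12, -0.28 and -0.25, and that of members with 0 was -0.0019, 0.051 and 0.036. Over 290 members Spearman's rho between matches and change was -0.47, a description over genes that share libraries, fingers and in part sequence. In GFP mice rho was -0.35, and for the miR-181 change less the GFP change it was -0.26.

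**Figure D2:**
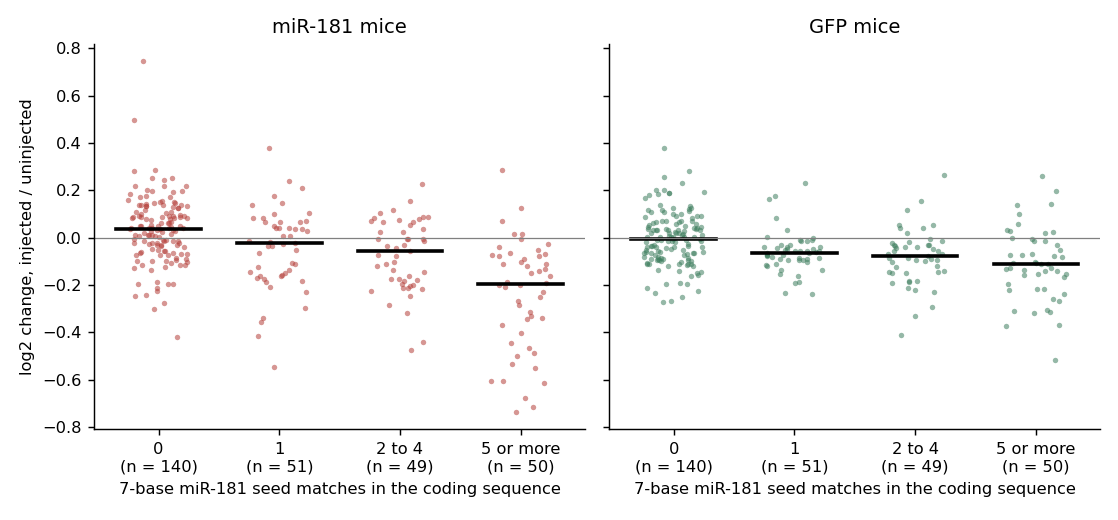
Log2 change between injected and uninjected sides (fitted, on log2 of the value plus 0.5) of 290 members, 1 point each, by the number of 7-base coding matches, in miR-181 and GFP mice; black bars are medians. The median goes from 0.038 to -0.20 in miR-181 mice and from -0.0063 to -0.11 in GFP mice.

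GFP mice had the same order with a smaller range, and 1 mouse made most of the distance between 5 or more and 0 matches. Their medians were -0.0063, -0.064, -0.079 and -0.11 for the same 4 classes. Below 0 were 71 of 140, 45 of 51, 41 of 49 and 40 of 50 members. With 1 match the medians of mice 1 to 4 were -0.083, -0.028, -0.014 and -0.087. With 2 to 4 matches they were -0.14, -0.077, -0.00088 and -0.079. In these middle classes the GFP median was below that on the miR-181 side. In mice 1, 2, 3 and 4 the median of members with 5 or more matches was -0.064, -0.30, 0.044 and -0.071, so mouse 2 was low and mouse 3 above 0. Without the injected library of mouse 2 the GFP median of this class was -0.026, and its distance to members with 0 matches went from -0.11 to -0.008. On the miR-181 side that distance was -0.23, and between -0.26 and -0.19 without each library in turn.

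The difference between the sets, the per-mouse log2 change in 3 miR-181 mice less that in 4 GFP mice, had a median of 0.027 in members with 0 matches and -0.12 in those with 5 or more, of which 37 of 50 were below 0. The distance between these classes was -0.14. It was -0.25 without miR-181 mouse 1, -0.23 without GFP mouse 2 and -0.086 without miR-181 mouse 2.

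By number of fingers the medians did not fall throughout. Members with 15 or more fingers had a median of -0.015 on the miR-181 side (n = 55) and those with 10 to 14 had -0.085 (n = 108). Among members with 10 to 14 fingers the median was 0.0043 with 0 matches (n = 42) and -0.30 with 5 or more (n = 26). KRAB genes hold more matches: the median was -0.10 for the 121 members with a KRAB pattern and 0.032 for the 169 without. Within KRAB members it was -0.0049 with 0 matches (n = 28) and -0.22 with 5 or more (n = 40), and within the others 0.039 (n = 112) and -0.16 (n = 10). In GFP mice the KRAB members had a median of -0.091 and the others -0.020. There the medians with 0 and with 5 or more matches were -0.047 and -0.13 among members with 10 to 14 fingers. They were -0.078 and -0.13 within KRAB members, and 0.0032 and -0.052 within the others. The separate parts of fingers, KRAB and matches were not tested.

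Members with matches in the 3' UTR also had lower medians. Members with 0, 1 and 2 or more had medians of 0.010 (n = 208), -0.12 (n = 52) and -0.11 (n = 30) on the miR-181 side. The last 2 were lower than the medians for 1 coding match (-0.021, n = 51) and for 2 to 4 (-0.055, n = 49). In GFP mice the same 3' UTR classes had -0.039, -0.097 and -0.060. Genes outside the members had lower medians with such matches too. All other genes tested had 0.015, -0.045 and -0.10 on the miR-181 side and 0.012, -0.015 and -0.052 in GFP mice. Among members without a coding match the 3' UTR classes had 0.051 (n = 115), -0.067 (n = 20) and -0.091 (n = 5) on the miR-181 side. Among members without a 3' UTR match the median on the miR-181 side was 0.051 with 0 coding matches (n = 115) and -0.18 with 5 or more (n = 30). It was -0.021 with 1 (n = 35) and -0.0076 with 2 to 4 (n = 28). In GFP mice the medians with 0, 1, 2 to 4 and 5 or more were 0.0024, -0.064, -0.064 and -0.076. The 27 members with 5 or more matches of 8 bases, TGAATGTA, had a median of -0.25 on the miR-181 side and -0.078 in GFP mice. In members with at least 90% unique words, where reads are shared least (a split added after the data were seen), the median was 0.031 with 0 matches (n = 116) and -0.11 with 5 or more (n = 21). In GFP mice the same members had 0.0025 and -0.11, so the distance between these classes was -0.14 on the miR-181 side and -0.11 on the GFP side.

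C2H2 genes with other names had class medians in the same order on the miR-181 side, but not in GFP mice. The 162 other genes with 5 or more C2H2 fingers and a mean of at least 1 had medians of 0.062 with 0 matches (n = 82), 0.032 with 1 (n = 25), -0.093 with 2 to 4 (n = 14) and -0.29 with 5 or more (n = 41) on the miR-181 side. In GFP mice the medians of these classes were -0.034, 0.035, -0.061 and -0.079. Over all 162 the median was -0.021 on the miR-181 side, next to -0.018 for the members. Whether members and other C2H2 genes differ was not tested.

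**Figure D3:**
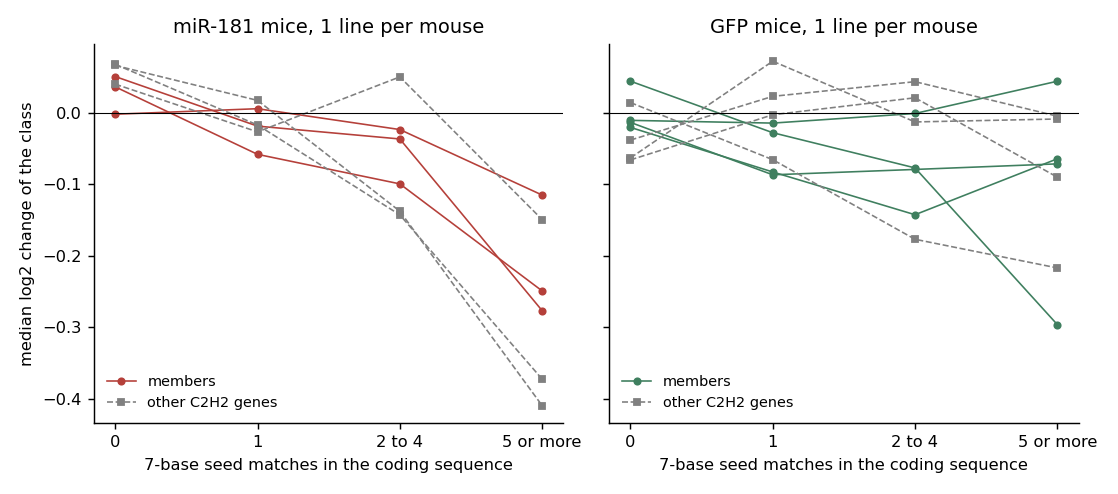
Median log2 change of each class of coding matches in each mouse, for members (solid, coloured) and the 162 other C2H2 genes (dashed, grey), in miR-181 mice on the left and GFP mice on the right. In members with 5 or more matches the 3 miR-181 mice sit between -0.28 and -0.12, and the GFP mice between -0.30 and 0.044, with mouse 2 the lowest.

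Taken as 1 group, the members had a median close to that of all genes on the miR-181 side, and a lower one in GFP mice. Their median log2 change on the miR-181 side was -0.018, next to 0.0035 over all genes tested, and -0.0097, -0.017 and -0.033 in mice 1, 2 and 3. In GFP mice it was -0.053, next to 0.0046 over all genes, and -0.048, -0.038, 0.00072 and -0.054 in mice 1 to 4. There 200 of 293 members were below 0 (68.3%, against 48.2% of all genes tested). On the miR-181 side 161 were (54.9%, against 49.2%). For the difference between the sets the members' median was -0.00035.

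On the GFP side limma called 0 members higher and 0 lower, where 1.34% and 0.0131% of 15274 genes were called. At an unadjusted p under 0.05 there were 4 members higher (1.37%, against 6.84% of all genes tested) and 12 lower (4.10%, against 2.68%). The injected libraries were all below the uninjected ones in 8 members (2.73%, against 1.00% of all genes tested) and all above in 1 (0.341%, against 3.29%). The largest positive log2 changes were those of Zfp771 at 0.38, from 19.7 ± 4.52 (SD, n = 5) to 25.5 ± 4.19 (SD, n = 4), Zfp105 at 0.26, Zfp113 at 0.26 and Zfp707 at 0.25, beside Zfp36. The largest negative ones were Zfp965 at -0.52, Zfp229 at -0.41, Zfp758 at -0.37, Zfp120 at -0.37 and Zfp566 at -0.33. None of these 9 passed (limma adjusted p between 0.465 and 0.705 over the 10 with Zfp36). Zfp758 was at 5.63, 5.29, 4.77, 6.47 and 5.96 uninjected and at 5.38, 2.58, 4.81 and 4.61 injected, with mouse 2 the lowest.

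The difference between the sets asks whether a member moved more in miR-181 mice than in GFP mice. The sets also differ in dose, sequencer, read length and library set, so it is not a difference between vectors alone. Of 14824 genes tested 0.00675% were called higher and 0.0270% lower, and 0 members were called by limma. At an unadjusted p under 0.05, 6 members were higher (2.05%, against 7.05% of all genes tested) and 14 lower (4.78%, against 8.25%). The smallest adjusted p were those of Zfp37 and Zfp967, with differences of -0.57 ± 0.10 and -0.51 ± 0.09 log2 units (SE; limma adjusted p = 0.0959 and 0.0965). Zfp973 had the lowest difference, -0.62, followed by Zfp970 at -0.60, Zfp971 at -0.58 and Zfp125 at -0.58 (limma adjusted p = 0.14, 0.179, 0.193 and 0.111), and Zfp57 was at -0.48 (0.214). The highest were Zfp36 at 0.53, Zfp433 at 0.44, Zfp759 at 0.44, Zfp94 at 0.44 and Zfp516, a transcription factor of brown fat, at 0.43, none with an adjusted p under 0.3. Without miR-181 mouse 1, 4 members were called lower: Zfp967, Zfp973, Zfp37 and Zfp971 (limma adjusted p = 0.0173, 0.022, 0.0344 and 0.0362).

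**Figure D4:**
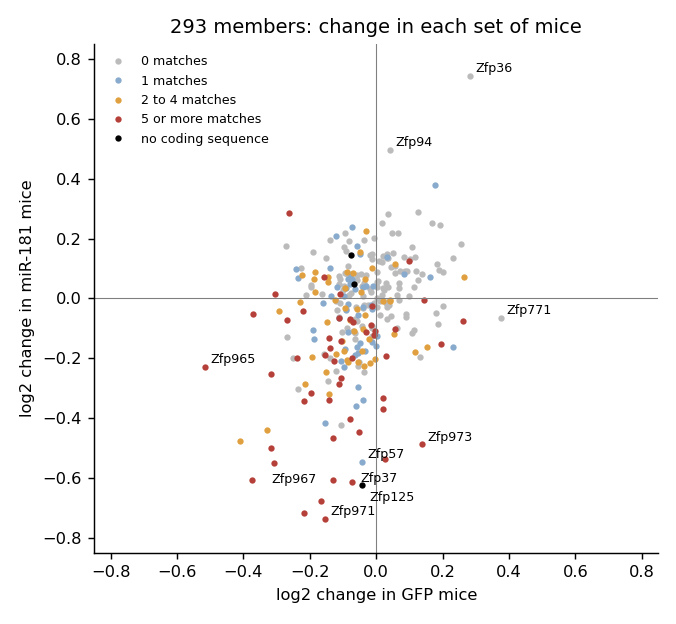
Log2 change of each of the 293 members in GFP mice (horizontal axis) and in miR-181 mice (vertical axis), coloured by the number of 7-base coding matches; the sets share no library. Members with 5 or more matches lie mostly below 0 on the vertical axis (45 of 50) and on the horizontal axis (40 of 50). Zfp36 and Zfp94 are the highest on the vertical axis.

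Members with better known roles were grouped by them. Of 10 that act in RNA binding, decay and translation, 0 passed in any comparison. On the miR-181 side 2 were higher at an unadjusted p under 0.05, Zfp36 and Zfp706 (log2 change 0.15, limma adjusted p = 0.206). Over all genes tested 12.8% were higher at that unadjusted p. Zfp207 was at a log2 change of 0.081 on the miR-181 side. Of 25 in transcription and neural development 0 passed; the smallest p were those of Zfp410, an activator of Chd4, at 0.24, Zfp384 at 0.22 and Zfp507 at -0.36 (limma adjusted p = 0.0849, 0.0986 and 0.155). Of the 5 in imprinting and retroelement silencing Zfp57 fell and the other 4 did not pass, among them Zfp961 at -0.34 and Zfp932 at -0.16 (limma adjusted p = 0.241 and 0.264). Of the 3 ubiquitin and SUMO ligases 0 passed: Zfp91 at 0.078, Zfp451 at 0.044, which was below 0 under median centring or quantile normalization, and Zfp598, which marks collided ribosomes, at -0.021.

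The machinery that KRAB proteins recruit was followed in a list of its own. Of 25 corepressor genes tested on the miR-181 side 1 was called higher, the histone deacetylase Hdac1, from 36.5 ± 1.24 to 43.5 ± 1.79 (SD, n = 3 each; log2 change 0.25, limma adjusted p = 0.048), and 0 lower. Over all genes tested 4.39% were called higher and 1.49% lower, so 1 call in 25 was near the background. Daxx, a histone chaperone, was at 0.43, the remodeller Chd4 at 0.16 and Smarcad1 at 0.23 (limma adjusted p = 0.0888, 0.0911 and 0.0985). In GFP mice limma called 0 of 24 (0 higher and 2 lower at an unadjusted p under 0.05), and for the difference 0 of 24 (1 and 1). Over all genes tested the shares at that unadjusted p were 6.84% higher and 2.68% lower in GFP mice, and 7.05% and 8.25% for the difference.

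RNA of markers of some cell types differed between the sides in both sets, which does not tell the number of cells from the RNA per cell. Of 8 microglia markers limma called 7 higher on the miR-181 side and 6 on the GFP side, where 4.39% and 1.34% of all genes tested were. The summed value of these markers on the injected side was 2.30, 4.39 and 3.06 times that on the uninjected side in miR-181 mice 1, 2 and 3. In GFP mice it was between 1.90 and 2.41 times. The 8 markers of neurons summed to 0.965, 0.786 and 0.851 times the uninjected side in miR-181 mice. The median of members with 5 or more matches had the same order of mice, and the microglia sums had it in reverse. In GFP mice 1 to 4 the neuron markers summed to 1.00, 0.949, 0.985 and 0.951 times. There the order differed, with mouse 1 highest for neurons and mouse 3 for the median of that class. Limma called 0 of the 8 neuron markers in either set. At an unadjusted p under 0.05, 6 were lower in miR-181 mice and 1 in GFP mice, where 10.7% and 2.68% of all genes tested were. The summed markers of B and plasma cells were 15.6, 77.1 and 37.6 times as high in miR-181 mice and 2.40, 187, 9.91 and 75.1 times in GFP mice 1 to 4, GFP mouse 2 being highest. Of 8 dopamine neuron markers 0 passed, with sums of 1.03, 0.57 and 1.02 times in miR-181 mice; Th was at 304 ± 60.8 uninjected and 254 ± 89.1 injected (SD, n = 3 each), so the enzyme that defines the region's dopamine neurons was present. Prl and Gh, hormones of the pituitary, made up 4.70% of GFP mouse 1's uninjected library and 0.227% of its injected one. The part of these shifts in the members' changes was not tested.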

How the data were processed

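Libraries from 8 mice (15 in all) were quantified by the authors with kallisto 0.43.1 and sleuth 0.30.0, per the submitters' processing notes. The deposited value of each library is a signal, read from its sums as TPM divided by a size factor; each of the 2 tables was normalized on its own by the authors. The deposited coefficients were read as natural log (ln) values, used here for their sign only, and the deposited q-values (p-value columns) are counted as they stand; the file headers do not name the tests. Of 36660 rows with values, 395 that repeated a symbol and every value were left out.

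After adding 0.5 and taking log2, limma 3.58.1 (R 4.3.3) was fitted with a trend on intensity, and p-values were adjusted by Benjamini-Hochberg (threshold 0.05) over all genes with a mean of at least 1; the p-values measure the spread between these samples. On this log2 scale the pseudocount shrinks the fold of genes with low values. The fits were tested on simulated data. Per the labels each mouse gave both of its sides, so mouse numbers pair the libraries; deviations of the sides correlated at 0.183, 0.140 and 0.257 in miR-181 mice and at 0.192, 0.0947, 0.0177 and 0.122 in GFP mice. In the blocked fit GFP mouse 5 has a term of its own and adds nothing to the contrast, a choice made after its count of calls was seen. For the difference the trend used the mean level of both tables.

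Members and lists were chosen with earlier results of these data known, and the classes of matches after their values were seen. Fingers were found as C, 2 to 4 residues, C, 12 residues, H, 3 to 5 residues, H, and KRAB boxes by a pattern. Named were called members, the 5 largest changes where fewer were called, the most abundant, those beside the limit, those with most matches and the 3 of smallest p in each role list; Zfp950 was named after its value was seen. Alternatives were other pseudocounts, filters and normalizations, no trend, mouse as a block and each library left out. Work was done in Python 3.11.15 with pandas 2.3.3, and figures in matplotlib 3.10.9.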

Additional observations from a re-analysis of the deposited data

Results flagged for a closer look

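In the injected libraries of GFP mice Zfp125 was at 9.24 in mouse 1, far from the other 3 (10.9 to 10.99). The median log2 change of members with 0 coding matches was 0.044 in GFP mouse 2, apart from the other 3 GFP mice, in which it was between -0.020 and -0.010. Chance alone gives about 1 such value in 20 groups checked, and 19 were checked.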

How the results depend on the processing

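The number of members called lower on the miR-181 side, 5, was 9 with libraries centred on their medians, 3 with mouse as a block, 2 with no filter on low values, 3 without the intensity trend, and between 0 and 15 without each library in turn. The 1 called higher became 0 with the block, with no filter and without the trend, and between 0 and 2 without each library. With median centring, calls over all genes tested went from 230 to 468 lower and from 678 to 634 higher. For the difference the members called lower were between 0 and 4 without each mouse; the block changed no other count. The members' median was -0.084 with median centring and -0.11 with quantile normalization on the miR-181 side. It was -0.081 with quantile normalization in GFP mice (-0.060 to -0.028 without each library). For the difference it was -0.050 and -0.051 with the 2 settings (-0.0035 to 0.017 without each mouse). The median of all genes tested moved too. It was -0.062 and -0.057 with these settings on the miR-181 side. In GFP mice it was -0.024 with quantile normalization, and for the difference -0.050 and -0.030. Median centring moves every gene of a comparison by the same amount. Members with 5 or more coding matches had -0.29 with quantile normalization on the miR-181 side, and with 2 or more 3' UTR matches in place of coding matches the distance to members with 0 was -0.12. Zfp451 was at -0.021 with median centring and -0.027 with quantile normalization, and Zfp598 between -0.058 and 0.0061 without each library, above 0 at 0.0022 without injected mouse 2 and 0.0061 without uninjected mouse 1. Apart from the move shared by all genes under median centring, the cause of these shifts was not tested. Depth is unknown from these values, so it sets no limit that can be given.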
